A study of Mus musculus with 20 samples.

Results

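The carboxylesterases described here were 10 genes of mouse liver, Ces1c, Ces1d, Ces1e, Ces1f, Ces1g, Ces2a, Ces2c, Ces2e, Ces3a and Ces3b, which were matched by symbol in a table of 55487 genes. The table held 20 genes with a Ces symbol, of which these are 10. Liver RNA had been sequenced from 20 female C57BL/6J mice, with 1 library per mouse. All mice were 28 weeks old and had entered the feeding study at 8 weeks of age. The chow group stayed on a standard chow diet throughout. The other mice were made obese on a high-fat diet (HFD) and were then moved for 10 weeks to an HFD in which 50% of the protein came from fishmeal made of salmon by-products, from salmon filet or from beef. The sample labels gave 5 chow, 5 fishmeal, 6 salmon and 4 beef mice. Mouse 31 was salmon by its label, but the count table named its column beef. Grouping by the column names gives 5 mice in every group. The paper describes equal numbers of sequenced mice per diet group, which the column names match and the labels do not. The column name is therefore the likelier assignment, but the main groups here follow the labels. Salmon and beef results are also given with mouse 31 counted as beef. Chow and HFD differed in fat, carbohydrate and protein source together, so the parts of the diet cannot be told apart in a comparison with chow.

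Carboxylesterases cut ester, amide and thioester bonds, and the liver holds them mainly inside the endoplasmic reticulum. They clear drugs and other foreign esters, and several of them also cut triacylglycerols and other lipid esters, which links them to stored fat and to the lipid loaded onto very low density lipoprotein (VLDL). In mice the family has expanded by gene duplication, so closely similar genes lie next to each other. Several Ces2 genes are known to be induced through CAR and PXR, the nuclear receptors that sense foreign compounds.

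On the GRCm38 build the family formed 2 clusters on chromosome 8 that lay 11.2 Mb apart. The first spanned 515.6 kb (chr8:93020214-93535830, minus strand) and held 9 genes, among them the 5 Ces1 members. The second spanned 416.1 kb (chr8:104734003-105150109, plus strand) and held 11 genes, among them the Ces2 and Ces3 members. Ces2a lay at chr8:104734003-104741634 and had 18 distinct annotated exons, and Ces3b lay at chr8:105083753-105093929 with 21. Ces1d overlapped the gene model Gm45909 on the same strand by 1031 bases, and Ces3a overlapped Gm45724 on the opposite strand by 420 bases.

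RefSeq promoters on GRCm38.p6, from 250 bases before to 50 after the gene's start, were at hand for 7 of the 10 members. They were searched on both strands for nuclear receptor core sites (AGGTCA and AGTTCA), the E-box CACGTG, the D-box TTANGTAA that clock-controlled factors bind, and the longer nuclear receptor element DR1. The promoters of Ces2a and Ces3b are shown because these genes changed with diet, that of Ces2c because it is most like that of Ces2a, and those of Ces1c, Ces1e and Ces1g because they hold the D-box letters. Capitals mark the letters that matched a searched motif.
Ces2a (chr8:104733753-104734052, plus strand): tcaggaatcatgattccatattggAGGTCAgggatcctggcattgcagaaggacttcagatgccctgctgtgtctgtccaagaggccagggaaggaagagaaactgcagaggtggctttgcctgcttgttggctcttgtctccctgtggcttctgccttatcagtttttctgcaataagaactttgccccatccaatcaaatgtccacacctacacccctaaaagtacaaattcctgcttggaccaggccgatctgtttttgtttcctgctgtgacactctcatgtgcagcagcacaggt
Ces2c (chr8:104846818-104847117, plus strand): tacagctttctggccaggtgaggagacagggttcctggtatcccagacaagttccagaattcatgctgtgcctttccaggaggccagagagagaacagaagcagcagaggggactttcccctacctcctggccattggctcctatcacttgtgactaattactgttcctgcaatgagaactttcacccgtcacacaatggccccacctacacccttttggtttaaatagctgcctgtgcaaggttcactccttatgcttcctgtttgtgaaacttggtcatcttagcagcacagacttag
Ces3b (chr8:105083505-105083804, plus strand): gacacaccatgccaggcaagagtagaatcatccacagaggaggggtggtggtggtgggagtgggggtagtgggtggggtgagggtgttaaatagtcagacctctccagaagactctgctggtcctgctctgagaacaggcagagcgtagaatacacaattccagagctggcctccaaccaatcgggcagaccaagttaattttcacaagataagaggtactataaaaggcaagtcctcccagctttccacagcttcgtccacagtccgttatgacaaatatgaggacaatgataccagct
Ces1c (chr8:93131234-93131533, minus strand): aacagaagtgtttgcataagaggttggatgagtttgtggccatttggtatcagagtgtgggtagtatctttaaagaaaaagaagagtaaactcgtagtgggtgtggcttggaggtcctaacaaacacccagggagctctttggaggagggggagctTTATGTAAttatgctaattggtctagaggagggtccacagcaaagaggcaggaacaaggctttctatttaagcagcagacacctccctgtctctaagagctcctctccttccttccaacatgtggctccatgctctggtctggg
Ces1e (chr8:93229570-93229869, minus strand): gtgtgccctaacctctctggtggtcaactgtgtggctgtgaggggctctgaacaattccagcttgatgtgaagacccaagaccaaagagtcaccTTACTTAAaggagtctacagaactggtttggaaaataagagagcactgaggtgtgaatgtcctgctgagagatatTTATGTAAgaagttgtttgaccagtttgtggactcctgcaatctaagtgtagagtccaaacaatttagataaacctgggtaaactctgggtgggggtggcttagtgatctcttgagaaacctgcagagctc
Ces1g (chr8:93337160-93337459, minus strand): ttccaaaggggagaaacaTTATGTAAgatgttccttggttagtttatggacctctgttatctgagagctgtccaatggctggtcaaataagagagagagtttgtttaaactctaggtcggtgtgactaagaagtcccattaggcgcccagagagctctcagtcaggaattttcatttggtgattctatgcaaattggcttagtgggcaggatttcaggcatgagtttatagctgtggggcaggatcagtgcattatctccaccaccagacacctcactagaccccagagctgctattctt

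The 3 Ces1 promoters at hand held the D-box letters and none of the 4 Ces2 and Ces3 promoters at hand did. Promoters of Ces1d, Ces1f and Ces3a were not at hand, so these members are left open. Of 32851 RefSeq promoters of the same length 2.32% held the letters. The match lay at bases -94 to -87 from the start in Ces1c, at -81 to -74 in Ces1e and at -232 to -225 in Ces1g, with another on the minus strand at -156 to -149 in Ces1e. AGGTCA was found in Ces2a alone, at -226 to -221, and in 16.26% of all promoters. AGTTCA (13.99% of all promoters), CACGTG (7.15%) and DR1 (0.09%) were in none of the 7. A match is a description of letters and not a binding site. The promoters of Ces2a and Ces2c were identical at 67% of 300 bases, and those of Ces2a and Ces3b at 50%.

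The libraries held 42526234 to 70266136 counts on genes. Protein coding genes took 93.155% to 95.557% of them, apart from 84.34% in beef mouse 35. Hepatocyte markers were high in every library, with 6 genes (Alb, Apoa1, Ttr, Fgb, Cps1 and Serpina1c) summing to between 93010 and 129500 TPM (a transcript level in which counts are scaled for gene length and library size). Exocrine pancreas markers summed to at most 0.2053 TPM and adipocyte markers to at most 8.107 TPM. In whole liver, fewer cells of a type and less RNA per cell cannot be told apart.

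Together the 10 members made up 0.5126% to 0.8046% of all TPM, with a mean of 0.7281% ± 0.04624 (SD, n = 5) in chow and 0.6727% ± 0.05921 (SD, n = 15) in HFD. The lowest share was that of beef mouse 35 and the highest that of chow mouse 1. Per length, Ces1c, which encodes an esterase secreted into plasma, was by far the most abundant, with a median level of 3830 TPM and a range of 2466 to 4914 TPM over 20 libraries. It lay above every other member in every library and took 48.12% to 63.38% of the members' TPM. Ces2c, an ester and glyceride hydrolase of liver and intestine, stood last, with a median of 11.66 TPM (3.757 to 21.76 TPM), below every other member in every library.

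The 8 genes between them formed a continuous scale of levels. Ces3a had a median of 810.5 TPM, Ces1d 651.4 TPM, Ces1g 428.8 TPM and Ces1f 422 TPM. Below them came Ces3b with 225.4 TPM, Ces1e with 212.4 TPM, Ces2e with 148.6 TPM and Ces2a with 133.5 TPM. The ranges of neighbours in this order overlapped. Ces3a was above Ces1d in 13 of 20 libraries, Ces1g above Ces1f in 11 and Ces3b above Ces1e in 9, so the order within these pairs was not fixed.

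**Figure D1:**
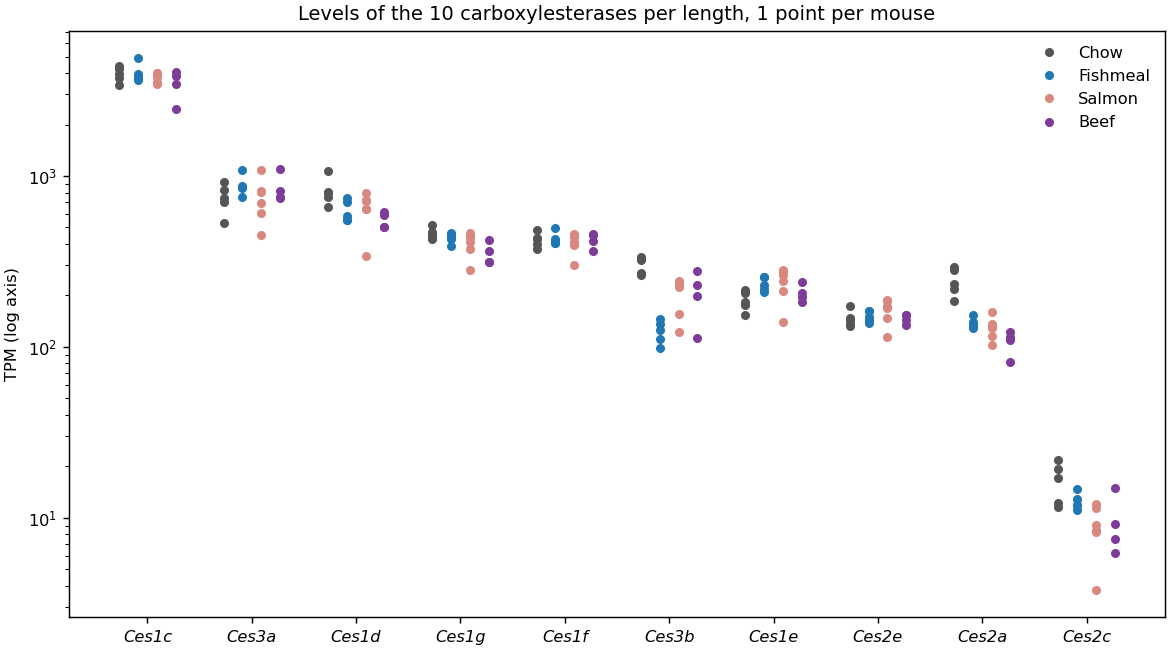
Level of each carboxylesterase in TPM on a log axis, with 1 point per mouse coloured by labelled group and genes ordered by their median over 20 libraries. Ces1c lies above all other members in every library and Ces2c below all of them. The chow mice are on top for Ces2a. For Ces3b they lie above all HFD mice but beef mouse 39, which at 279.7 TPM is above chow mice 1 (272 TPM) and 7 (262.7 TPM).

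The comparison of HFD with chow set the 15 HFD mice, pooled over protein source, against the 5 chow mice. A gene called in it need not differ from chow in each HFD group. By edgeR's quasi-likelihood test with Benjamini-Hochberg adjustment over 17120 genes, 2 of the 10 members passed an adjusted p of 0.05, Ces2a and Ces3b, and both were lower in HFD. Of all genes tested 9.75% passed, and 5.21% of all genes passed with a lower level in HFD. Since that background gives about 1 gene in 10, the count of 2 is a statement about these genes and not about the family as a group. The members' median log2 fold change was -0.08, and that of all genes 0.01. At an unadjusted p under 0.05 there were 5 members (Ces1d, Ces1e, Ces2a, Ces2c and Ces3b), against 24.4% of all genes. The libraries are separate mice, so the tests measure the spread between animals, which in pooled HFD includes differences between the HFD diets.

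Ces2a, a liver and intestine esterase that activators of CAR and PXR are known to induce, showed the clearest difference. In CPM, which scales counts for library size with TMM factors, chow mice 1, 2, 5, 7 and 10 had 274.1, 240.8, 224, 192.6 and 170.9. The 5 fishmeal mice had 157.9, 135.4, 121.8, 126.6 and 113.1 CPM. Even the highest of these was below the lowest chow mouse. The salmon mice ranged from 101 to 139.6 CPM with a median of 119.2, and mouse 31 had 106.1. The beef mice had 73.61, 124.9, 113.6 and 108.9 CPM. Each of the 15 HFD mice lay below the lowest chow mouse, which held for 0.888% of all genes tested, and the mean level fell from 220.5 ± 40.42 CPM (SD, n = 5) to 119.1 ± 19.07 CPM (SD, n = 15). The log2 fold change was -0.89 (SE 0.12, 95% interval -1.14 to -0.65, edgeR adjusted p = 3.98e-05), or 0.538 of the chow level. It lay between -0.98 and -0.80 when each of the 20 mice was left out in turn, and passed the test in all 20 of those fits.

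The change of Ces2a was seen in each HFD group taken alone, although these comparisons share the chow mice. Against chow the log2 fold change was -0.76 in fishmeal (SE 0.14, edgeR adjusted p = 0.0102), where 2 of 10 members and 3.38% of all genes passed. In salmon it was -0.90 (SE 0.13, edgeR adjusted p = 0.00219), where 1 member and 4.46% of genes passed. In beef it was -1.07 (SE 0.18, edgeR adjusted p = 0.0123), where 1 member and 2.48% of genes passed. With mouse 31 counted as beef the salmon value was -0.87 (adjusted p = 0.00673) and the beef value -1.07 (adjusted p = 0.0051), with 4.42% and 3.05% of genes passing. Without beef mouse 40 the fold change in beef was no smaller (log2 -1.09), but the edgeR adjusted p was 0.0519. In that fit 0.593% of all genes passed.

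Ces3b was the other gene that fell. Chow mice 1, 2, 5, 7 and 10 had 276.8, 309.9, 345.2, 251.4 and 324.2 CPM, and the fishmeal mice 155, 140.1, 134.5, 101.8 and 106.4 CPM. These groups were far apart. The salmon mice spanned 127.4 to 241.4 CPM with a median of 224.9, and mouse 31 had 229.6. The beef mice had 111.8, 235.7, 281.5 and 247 CPM. All 5 fishmeal and all 6 salmon mice were below the lowest chow mouse, and beef mouse 39 was the 1 HFD mouse of 15 within the chow range. Salmon mice 22 and 25 and beef mouse 32 lay within the range of the fishmeal mice, below the other mice of their own groups.

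In HFD as a whole the log2 fold change of Ces3b was -0.74 (SE 0.20, 95% interval -1.16 to -0.32, edgeR adjusted p = 0.0229). This call was not stable to the choice of mice, although the fold change moved little. The edgeR adjusted p was 0.0578 without chow mouse 2 (log2 -0.73), 0.057 without chow mouse 5 (-0.69) and 0.0503 without chow mouse 10 (-0.72). It passed in 17 of the 20 fits that left out 1 mouse. Fitted on all 4 groups, which keeps the HFD diets apart, the value was -0.77 (SE 0.16, edgeR adjusted p = 0.00485). DESeq2 gave an adjusted p of 0.0101, and edgeR with the clock covariate described below 0.128. In fishmeal alone the log2 fold change against chow was -1.25 (SE 0.14, edgeR adjusted p = 0.000408), 0.421 of the chow level, and it passed in all 10 fits that left out 1 mouse. In salmon it was -0.59 (adjusted p = 0.063) and in beef -0.47 (adjusted p = 0.295), neither past the threshold by edgeR. DESeq2 did call Ces3b in salmon (adjusted p = 0.0153) but not in beef (adjusted p = 0.248). With mouse 31 counted as beef the edgeR values were -0.63 in salmon (adjusted p = 0.0648) and -0.45 in beef (adjusted p = 0.246).

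**Figure D2:**
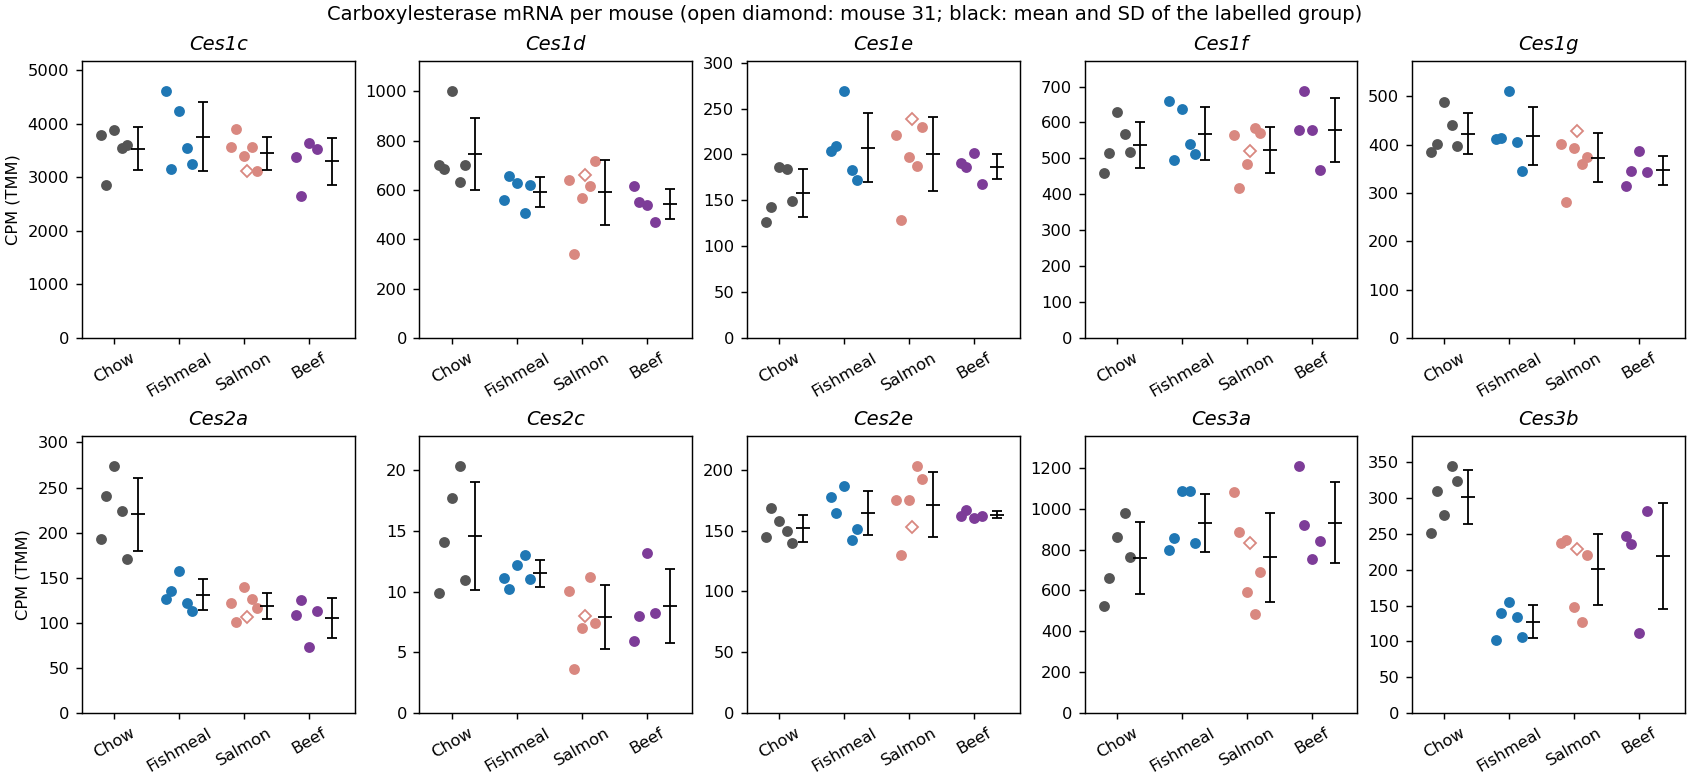
CPM (TMM) of the 10 members in each mouse by labelled group, from 0, with the group's mean and SD in black and mouse 31 as an open diamond. All 15 HFD mice lie below the chow mice for Ces2a and 14 of 15 for Ces3b, while for Ces1c, Ces1f, Ces2e and Ces3a chow and HFD overlap widely.

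Ces2c had a fold change in HFD of a size near that of Ces3b but did not pass the main edgeR test. Chow mice had 17.67, 14.12, 20.36, 9.848 and 10.94 CPM, fishmeal mice 12.22, 10.19, 13, 11.1 and 11 CPM, and beef mice 13.16, 7.972, 8.252 and 5.965 CPM. The salmon mice had 3.619 to 11.2 CPM with a median of 7.698, and mouse 31 had 8.002. Every HFD mouse was below the chow mean, but 8 of 15 were within the chow range, since chow mice 7 and 10 were low. The log2 fold change was -0.65 (SE 0.21, edgeR adjusted p = 0.055), and DESeq2 gave an adjusted p of 0.0376. It passed the edgeR test when mouse 7, 10, 12, 14, 23 or 32 was left out, and when fitted on all 4 groups (adjusted p = 0.0391). In the single groups against chow Ces2c had -0.35 in fishmeal (edgeR adjusted p = 0.366), -0.89 in salmon (0.061) and -0.72 in beef (0.181). With mouse 31 counted as beef salmon had -0.90 (0.0812) and beef -0.75 (0.111). In salmon as labelled Ces2c passed by DESeq2 (adjusted p = 0.00955), and by edgeR on all 4 groups (0.0377) or without the filter on low counts (0.0469). Ces2e, the third Ces2 member and an ester hydrolase of liver and intestine, had a log2 fold change of 0.13 (95% interval -0.05 to 0.31, adjusted p = 0.373), with chow at 139.5 to 168.2 CPM and HFD at 129.7 to 203.2 CPM.

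Within single libraries the unequal change of genes of one subfamily appeared as a ratio of TPM. Ces2e to Ces2a was 0.5025 to 0.7131 in the 5 chow mice and 1.02 to 1.903 in the 15 HFD mice, with no overlap, so Ces2a was the more abundant gene in every chow liver and the less abundant in every HFD liver. Ces3a to Ces3b was 2.027 to 3.034 in chow and 5.964 to 7.892 in fishmeal. In salmon it was 3.062 to 4.456, with 3.54 in mouse 31, and in beef 2.921 to 6.599, the highest being mouse 32. These ratios were chosen after their values had been seen and carry no test. They do not depend on the scaling of the library.

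**Figure D3:**
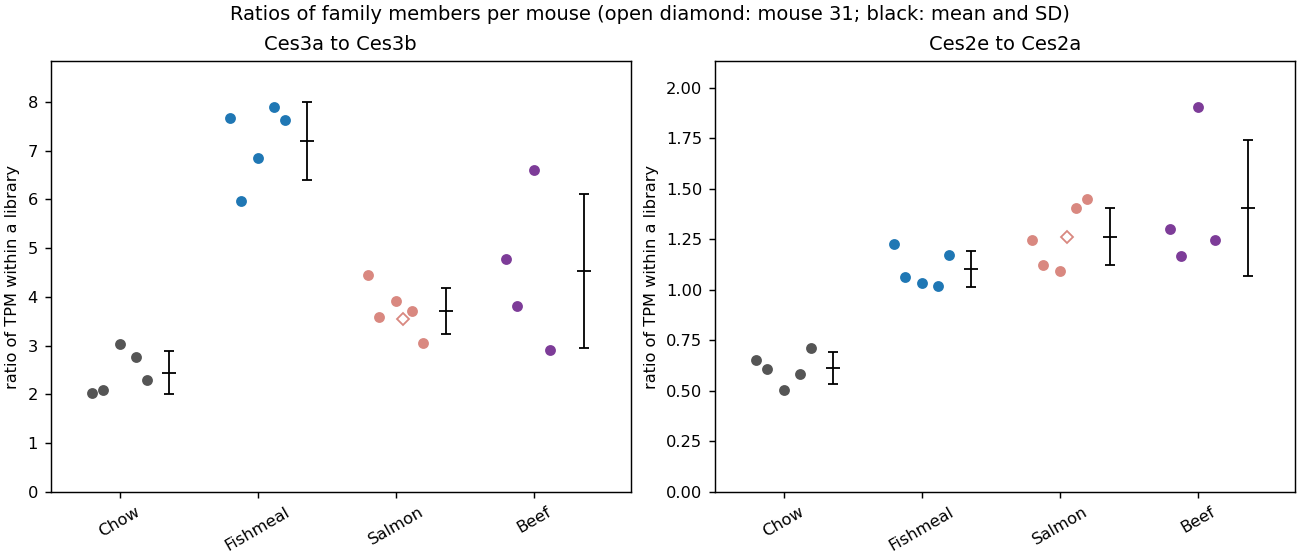
Ratio of Ces3a to Ces3b and of Ces2e to Ces2a in TPM within each mouse's library, from 0, with group mean and SD in black and mouse 31 as an open diamond. The 4 highest Ces3a to Ces3b ratios are those of fishmeal mice, with beef mouse 32 (6.599) above fishmeal mouse 13 (5.964), and every HFD mouse has a Ces2e to Ces2a ratio above 1 while every chow mouse is below it.

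Ces3a itself, the near-identical neighbour of Ces3b, did not pass the test. Its log2 fold change in HFD was 0.19 (SE 0.17, 95% interval -0.16 to 0.53, edgeR adjusted p = 0.538), with chow at 522 to 981.1 CPM and HFD at 484.2 to 1210 CPM. In fishmeal, where Ces3b was lowest, it was 0.30 (adjusted p = 0.405).

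Among the Ces1 members, which include the genes most tied to lipid handling, none passed the test in HFD. Ces1d, a triacylglycerol hydrolase of the endoplasmic reticulum that supplies lipid for VLDL, had 1003, 685.8, 634.3, 701.3 and 701.9 CPM in chow mice 1, 2, 5, 7 and 10. The fishmeal mice had 628.9, 655.3, 505.2, 558.7 and 621 CPM and the beef mice 540.4, 551.6, 468.7 and 615.9 CPM. The salmon mice had 339.8 to 717.4 CPM with a median of 628.3. All 15 HFD mice were below the chow mean and 11 below the lowest chow mouse. The log2 fold change was -0.37 (SE 0.13, 95% interval -0.63 to -0.11, edgeR adjusted p = 0.0645). Without chow mouse 1, the highest, it was -0.23 (adjusted p = 0.337), and it passed when salmon mouse 23 or 27 was left out.

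Ces1e, known as egasyn for holding beta-glucuronidase in the endoplasmic reticulum, had a positive fold change. Chow mice had 185.8, 143.2, 184.2, 125.9 and 149.6 CPM, fishmeal mice 269.4, 209.6, 182.5, 203.3 and 172 CPM, and beef mice 201.7, 186.6, 167.9 and 190.7 CPM. The salmon mice had 128.3 to 238.9 CPM with a median of 209.2, the highest being mouse 31. Of the 15 HFD mice, 11 were above the highest chow mouse and none below the lowest. The log2 fold change was 0.33 (SE 0.13, 95% interval 0.07 to 0.59, edgeR adjusted p = 0.0982).

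Salmon mouse 23 bore on these genes. It had the lowest CPM of all 20 libraries for 5 members, Ces1d (339.8), Ces1f (416.1), Ces1g (282.2), Ces2c (3.619) and Ces2e (129.7), and the lowest Ces1e of the HFD mice. Without it, 5 members passed in HFD against chow by edgeR, namely Ces1d (adjusted p = 0.0451), Ces1e (0.0346) and Ces2c (0.0387) beside Ces2a and Ces3b, while 9.75% of all genes passed, as with all mice.

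The remaining Ces1 genes had fold changes near 0. Ces1c had a log2 fold change of -0.01 (95% interval -0.23 to 0.21, edgeR adjusted p = 0.961), with 3535 ± 404 CPM in chow (SD, n = 5) and 3512 ± 477.2 CPM in HFD (SD, n = 15). Ces1f, a lipase of the endoplasmic reticulum, had 0.04 (95% interval -0.18 to 0.25, adjusted p = 0.868). Ces1g, which takes part in hepatic lipid secretion, had -0.15 (95% interval -0.37 to 0.06, adjusted p = 0.385). For these 3 genes the intervals leave out a change of 1.5-fold in either direction in HFD as a whole.

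**Figure D4:**
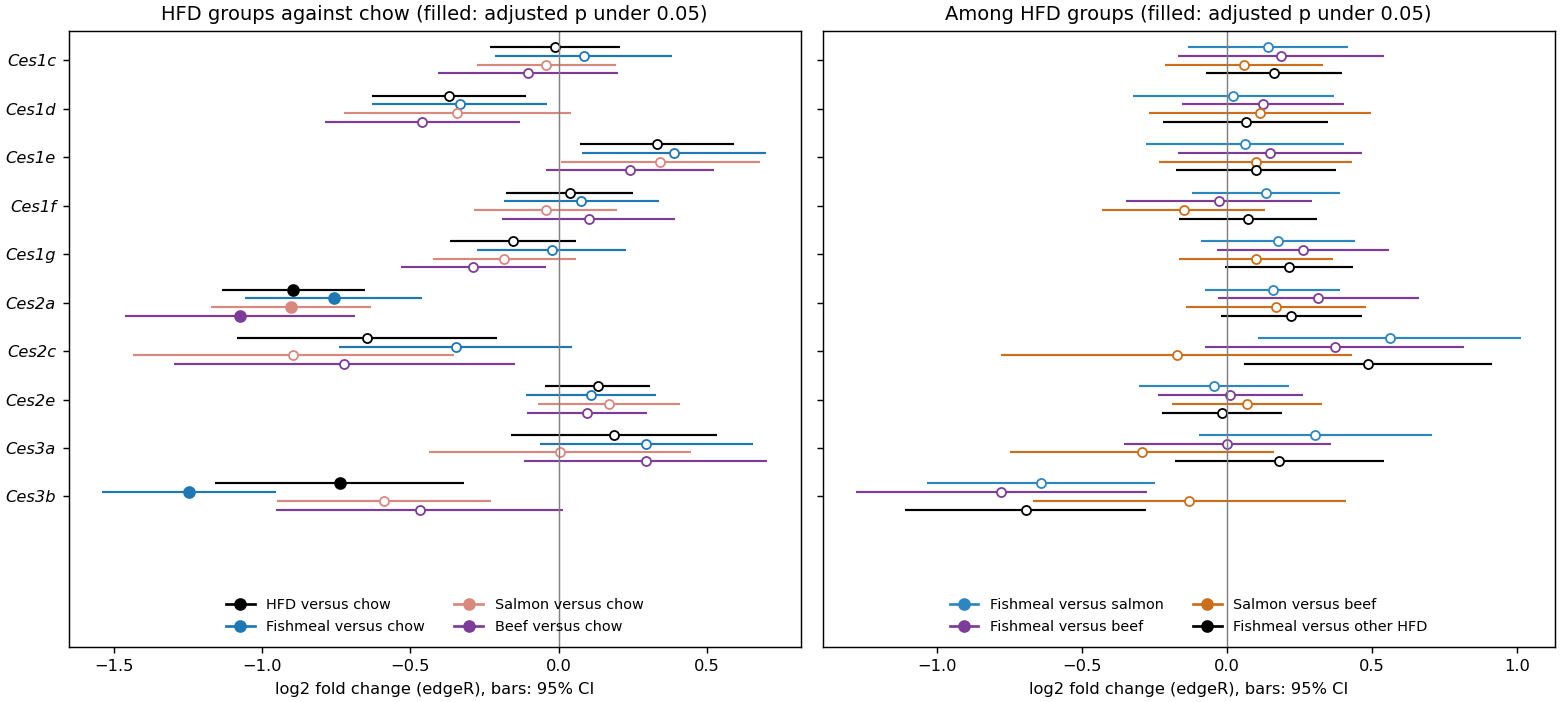
Log2 fold change of each member by edgeR with its 95% interval, for HFD and each HFD group against chow (left) and among the HFD groups (right); filled points had an adjusted p under 0.05. Ces2a is filled in all 4 comparisons with chow, Ces3b in HFD and fishmeal, and no point is filled on the right.

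The comparisons among the HFD groups asked whether the protein source mattered. The diets were matched in total fat, protein and carbohydrate but not in added soybean oil, fatty acids or cholesterol, which cannot be told apart from the protein source. By edgeR none of the members passed in fishmeal against salmon (0.157% of all genes passed), fishmeal against beef (0.00607%), salmon against beef (0%) or fishmeal against the other HFD mice (0.155%), and DESeq2 called none of them either. With mouse 31 counted as beef none passed in fishmeal against salmon (0.17% of all genes), fishmeal against beef (0.0245%) or salmon against beef (0%). At an unadjusted p under 0.05 there were 2 members in fishmeal against salmon, 1 in fishmeal against beef, 0 in salmon against beef and 2 in fishmeal against the others, beside 4.24%, 2.33%, 3.71% and 4.03% of all genes. Ces3b had the largest difference in size. It was lower in fishmeal than in the other 10 HFD mice by a log2 fold change of -0.69 (95% interval -1.11 to -0.28, edgeR adjusted p = 0.455). Ces2c was higher in fishmeal by 0.49 (95% interval 0.06 to 0.91, adjusted p = 0.997). After adjustment over all genes neither difference passed, and with 4 to 6 mice a group the intervals were wide.

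Genes around the carboxylesterases in the same pathways were read from lists. Of 14 genes for other lipases and their cofactors, 0 passed in HFD against chow by edgeR, with 1 at an unadjusted p under 0.05. Of 8 genes of VLDL assembly 0 passed, also with 1 at an unadjusted p under 0.05, beside 24.4% of all genes. Of 12 other ester and epoxide hydrolases 3 passed, beside 9.75% of all genes. Ephx1, the microsomal epoxide hydrolase, had a log2 fold change of -0.59 (adjusted p = 0.00732), Pon2, a lactonase, -0.31 (adjusted p = 0.00199), and Bphl, a hydrolase that activates ester prodrugs, 0.35 (adjusted p = 0.0347).

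Among the lists, that of CAR, PXR, their partner RXR-alpha and their targets held the most genes that were lower in HFD. By edgeR 6 of 14 fell and 0 rose, beside 5.21% and 4.54% of all genes, and the median of the list was -0.09. Cyp2b10, the classical CAR target, had a mean of 35.05 ± 19.5 CPM in chow (SD, n = 5; 18.91 to 68.38) and 1.988 ± 1.359 CPM in HFD (SD, n = 15; 0.4898 to 5.28), with no overlap and a log2 fold change of -4.14 (adjusted p = 2.57e-07). Cyp3a11, the main PXR-responsive cytochrome P450, had -0.85 (adjusted p = 0.00313). The glutathione transferases Gstm3 and Gsta2 were at 0.353 (adjusted p = 0.000848) and 0.311 (adjusted p = 0.00575) of the chow level, and the cytochromes Cyp2c55 and Cyp2c29 had log2 fold changes of -1.71 (adjusted p = 0.0015) and -0.50 (adjusted p = 0.0165). The mRNA of the receptors did not pass, with 0.26 for Nr1i3 (CAR, adjusted p = 0.453) and -0.13 for Nr1i2 (PXR, adjusted p = 0.416). A link between this list and the lower Ces2a was not tested.

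Many clock genes differed between the diets. Of 16 core clock genes, 9 rose and 2 fell in HFD by edgeR, beside 4.54% and 5.21% of all genes. Among those that rose was Dbp, an output factor that binds the D-box, at 26.03 times the chow level (log2 4.70, adjusted p = 0.00423). A clock score per library, built from 8 genes added and 4 subtracted, ran from -3.034 to -0.9644 in chow and from -2.262 to 3.754 in HFD. Only salmon mice 22 (-1.238) and 31 (-2.262) lay within the chow range. The lowest scores in fishmeal (-0.865) and beef (-0.04399) were above every chow mouse. The time of day at which livers were taken is not given in the sources used here. With this score as a covariate, Ces2a had a log2 fold change of -0.82 in HFD against chow (edgeR adjusted p = 0.00879) and Ces3b -0.85 (adjusted p = 0.128). The genes passing fell from 9.75% to 1.82% of all tested. In the single groups with the covariate, Ces2a did not pass against chow, with log2 fold changes of -0.56 in fishmeal (adjusted p = 0.477), -0.87 in salmon (0.057) and -1.43 in beef (0.343), and Ces3b passed in fishmeal (adjusted p = 0.0375). In these fits 0.297%, 0.385% and 0% of all genes passed. In fishmeal and beef no labelled mouse had a score within the chow range, so those fits cannot tell the score from the diet. In the fits of HFD as a whole and of salmon the overlap rested on mice 22 and 31 alone. Those fits can therefore hardly tell the score from the diet either.

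Across the 15 HFD libraries alone, the correlation of log2 CPM with the clock score was -0.11 for Ces2a, 0.08 for Ces3b, -0.63 for Ces1g and -0.56 for Ces1e, and between -0.24 and 0.11 for the other members. Over all 20 libraries Ces2a had -0.60, Ces3b -0.34, Ces1g -0.63 and Ces1e 0.07. Within the 5 chow libraries these were -0.22, 0.82, 0.14 and 0.52, so the sign differed between chow and HFD for Ces1g and Ces1e. These are descriptions over few libraries, which in HFD also differ in protein source. The promoters shown above with D-box letters belong to Ces1c (-0.17 within HFD), Ces1e and Ces1g. Whether these letters have a part in the correlations was not tested.

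Markers of other cells were followed beside the members. Of all genes 9.75% passed in HFD against chow by edgeR, and 24.4% had an unadjusted p under 0.05. Of 6 hepatocyte and 5 periportal genes 0 passed in HFD against chow by edgeR, with 0 and 2 at an unadjusted p under 0.05. Of 5 pericentral genes 1 passed by edgeR, Axin2, with -0.77 (adjusted p = 0.00305), while 3 had p below 0.05 before adjustment. The median log2 fold change of these 5 genes was 0.08. Their summed level was 6613 to 9737 TPM in chow and 7948 to 14980 TPM in HFD. Most of that sum was Cyp2e1, which ranged from 4793 to 12480 TPM over all libraries. Of 4 Kupffer cell genes 0 passed by edgeR, with 1 at an unadjusted p under 0.05, and the list summed to 156 to 341.5 TPM in chow and 138.5 to 338.9 TPM in HFD. Of the 2 enterocyte genes tested, Fabp2, which liver also expresses, rose (log2 1.21, adjusted p = 5.63e-05). It made up nearly all of a sum of 89.22 to 182.6 TPM in chow and 181.2 to 384.6 TPM in HFD, while the defining genes Alpi and Sis were at 0 in every library. The part of these markers in the changes of Ces2a and Ces3b was not tested.

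The 10 other Ces genes were mostly scarce, and 6 were expressed enough to be tested. By edgeR 3 of the 6 passed in HFD against chow, beside 9.75% of all genes. Ces2h rose to 2.14 times the chow level (adjusted p = 0.00155), with 0.5153 ± 0.1978 CPM in chow (SD, n = 5) and 1.117 ± 0.2232 CPM in HFD (SD, n = 15). Ces4a lay at 0.43 of the chow level (log2 -1.22, adjusted p = 0.0191), with 0.6421 ± 0.1682 CPM in chow and 0.2761 ± 0.1568 CPM in HFD. The pseudogene Ces2d-ps had -1.44 (SE 0.31, adjusted p = 0.00509), with 3 to 51 counts per library. Ces1b, the most abundant of them at 140.8 CPM in chow and 130.5 CPM in HFD, had -0.11 (adjusted p = 0.596). Ces1a and Ces2g had -0.11 (adjusted p = 0.866) and 0.09 (adjusted p = 0.533), and Ces1h, Ces2b, Ces2f and Ces5a were too low to be tested.

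Similarity between the genes limits how well reads can be assigned. For each gene the share of the 50-base windows of its longest transcript that occur without mismatch in another gene was counted. Ces2c shared 42.218% of its windows, Ces3a 30.896%, Ces3b 26.126%, Ces2a 22.24% and Ces1c 16.976%, while Ces1d, Ces1e, Ces1f, Ces1g and Ces2e shared between 1.279% and 3.358%. The windows of Ces3a and Ces3b were shared with each other alone, as these transcripts were 95.36% identical over 2046 bases. Ces2c was 90.98% identical to Ces2b over 1974 bases, and Ces2a 81.78% to Ces2c over 1861 bases. The pseudogene Ces2d-ps shared 76.851% of its windows, so its fold change above is uncertain. How reads matching several genes were counted is not given in the sources used here, so values of Ces2a, Ces2c, Ces3a and Ces3b carry this uncertainty, and its part in their changes was not tested.

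**Figure D5:**
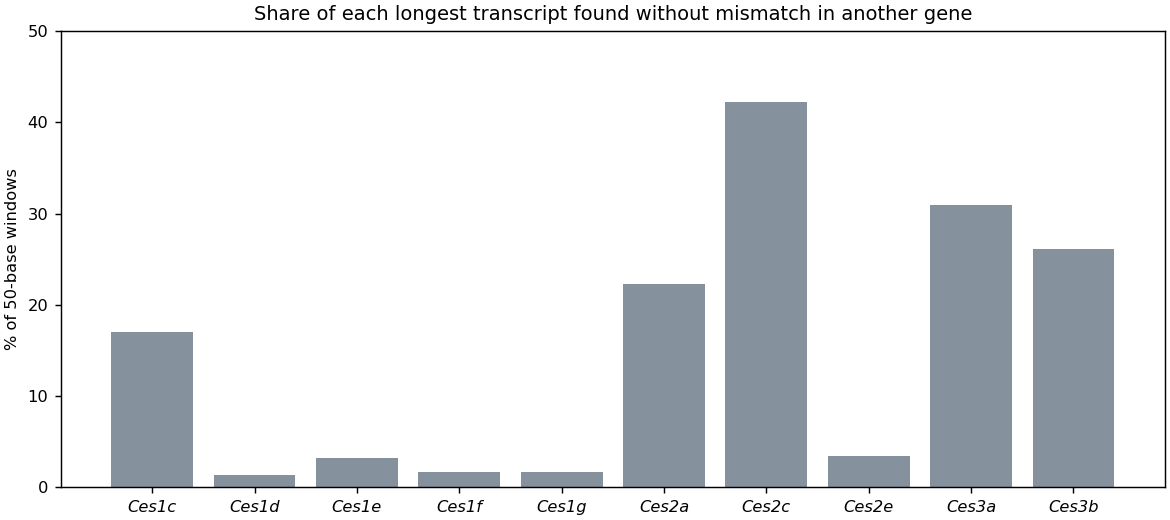
Percent of the 50-base windows of each member's longest transcript that occur without mismatch in another gene, as bars from 0. Ces2c (42.218%), Ces3a (30.896%) and Ces3b (26.126%) share most, and 5 of the 10 members share under 4%.

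Over the 20 libraries the members did not move as a block. The Pearson correlation of log2 CPM over the 45 pairs of members had a median of 0.13 and ran from -0.37 to 0.75. Within the 15 HFD libraries it ran from -0.66 for Ces2c and Ces3b to 0.86 for Ces1e and Ces1g, with 0.82 for Ces1d and Ces1e. Salmon mouse 23 was the lowest HFD mouse for Ces1d, Ces1e and Ces1g, and its part in these high values was not tested. The highest pair over all libraries was Ces1g with Ces2c (0.75, and 0.69 within HFD). Among 11497 protein coding genes, those most like Ces2a were Htatip2 (r = 0.88 over 20 libraries), Pon2 (0.86) and Slco2a1 (0.86), which within the 15 HFD libraries had 0.61, 0.31 and 0.42. Ces3b was most like Urad (0.85), an enzyme of urate breakdown, with 0.80 within HFD. Ces2c was most like Pir (0.84) and Cyp3a11 (0.82), with 0.78 each within HFD, and Ces1d was most like Cyp39a1 (0.84), an oxysterol hydroxylase. These correlations share libraries, depth and diet groups and are given without a test.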

How the data were processed

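Liver mRNA libraries of 20 mice were analysed from a table of read counts per gene and a table of TPM, both as deposited by the authors. Per the labels and the study's methods, the authors trimmed strand-specific paired-end reads with BBDuk, mapped them with HISAT2 1.2.1 and counted them with featureCounts 1.4.6-p1, and the TPM table holds the deposited counts scaled by gene length and library. The strand setting and the handling of reads that match several genes are not given in the sources used here. The sources print a human build name for the mouse genome. Gene positions come from GENCODE M21 on GRCm38, matched by gene identifier, and promoters from RefSeq. All columns carried a sample, so 0 were left out.

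Groups followed the sample labels. Comparisons used edgeR 4.0 in R 4.3 (TMM, quasi-likelihood F-tests in either direction on genes that filterByExpr keeps at min.count 10, adjustment by Benjamini-Hochberg over every gene tested, threshold 0.05). The study used DESeq2, which was run as an alternative (version 1.42), beside limma 3.58 on log2(TPM + 1) for genes with a mean of at least 0.5 TPM. Standard errors were taken from the F-test. CPM used TMM factors over all libraries, with a prior count of 2 on the log scale. Depth was 42526234 to 70266136 counts, so counting error is small beside the spread between mice for all members. Alternatives were other normalizations, no filter on low counts, a fit on all 4 groups, a clock score as covariate, mouse 31 as beef or left out, and omission of every single mouse. A fit without mice 31 and 35 together and a fit on protein coding genes alone were added after seeing the data. The clock score was the mean log2 CPM of Dbp, Tef, Ciart, Per1, Per2, Per3, Nr1d1 and Nr1d2 minus that of Arntl, Npas2, Clock and Cry1. Shared sequence was counted over windows of 50 bases after a blastn 2.17 search. The tools were tested on simulated data.

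The members and lists were chosen with earlier results of these data known. All 10 members are named, called or not, together with other Ces genes that were tested, the genes called in each list (at most 5 by adjusted p, with the others named where a count calls for it), and the genes of mean CPM of at least 1 most like a member. CAR and PXR themselves, Cyp2c29, and the ratios were named after their values were seen. A search of protein sequences was planned and not run here. Results of 1 marker list are not reported here.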

Additional observations from a re-analysis of the deposited data

Results flagged for a closer look

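Within-group gaps were examined for the CPM of each member, the summed TPM of the members and both ratios, over 52 sets of 4 to 6 mice, and 3 stood out by Dixon's test at the 95% level, which chance alone gives in about 1 of 20 sets. Chow mouse 1 had 1003 CPM of Ces1d, while the other chow mice had 634.3 to 701.9 CPM. Without this mouse the log2 fold change of Ces1d in HFD against chow was -0.23 in place of -0.37, and neither passed the edgeR test (adjusted p = 0.337 and 0.0645). Salmon mouse 26 had the highest summed level of the 10 members in its group, 7538.4 TPM beside 6322.1 to 6772.8 TPM. Beef mouse 35 had the lowest summed level, 5125.9 TPM beside 6607.1 to 6898.7 TPM, and it was also the library with the lowest share of counts on protein coding genes (84.34%).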

How the results depend on the processing

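Direction was the same in all 131 alternative values of the 6 fold changes that passed. With the clock score as covariate the members passing were 1 in HFD, 1 in fishmeal, 0 in salmon and 0 in beef against chow, in place of 2, 2, 1 and 1. In salmon against chow 3 passed by DESeq2 (1488 of all genes), 2 without the filter on low counts (2.28% of all genes) and 2 when fitted on all 4 groups (3.47%). Beside Ces2a, the genes passing in salmon were Ces2c and Ces3b by DESeq2, and Ces2c without the filter and on all 4 groups. In HFD against chow 3 passed by DESeq2 (2191 of all genes) and 3 when fitted on all 4 groups (9.92%), where Ces2c joined Ces2a and Ces3b. Leaving out 1 mouse gave 1 to 5 members in HFD, 2 to 2 in fishmeal, 1 to 1 in salmon and 0 to 1 in beef against chow, where leaving out chow mouse 2 or 5 lowered the HFD count and leaving out mouse 40 the beef count. The HFD count rose to 5 without salmon mouse 23 and to 3 without chow mouse 7, fishmeal mice 12 and 14, salmon mouse 27 or beef mouse 32, and without chow mouse 10 Ces3b was lost and Ces2c gained. Among HFD groups every alternative gave 0. Over all genes, HFD against chow gave 1669 calls, and 311 with the clock covariate and 986 to 1939 with a mouse left out, the counts without chow mice 1, 2 and 7 being 986, 1070 and 1049. Fishmeal gave 556 (1200 by DESeq2, 837 on all 4 groups, 367 by limma, 49 with the covariate), salmon 740 (1488 by DESeq2, 437 by limma, 64 with the covariate) and beef 411 (1092 by DESeq2, 780 on all 4 groups, 0 with the covariate), and leaving out 1 mouse gave 288 to 685, 311 to 728 and 100 to 634 in these 3 comparisons. The cause was not tested. No paired analysis was possible because the labels give mice no numbers shared between groups. The lowest member, Ces2c, had at least 206 counts in every library, so depth did not limit it.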
